A study of Mus musculus with 4 samples.

Results

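Chemokines made or carried by the lung epithelium were followed here as 9 genes: Cxcl15, Cxcl1, Cxcl2, Cxcl5, Cxcl10, Cxcl16, Cxcl17, Ccl20 and Ccl2. They were picked by symbol, and all 9 were found, each once, among the 27998 genes counted. The mice were Sftpc-creER;Rosa26-mTmG animals. In them a recombinase driven by the Sftpc promoter and released by tamoxifen switches on membrane GFP in alveolar type 2 (AT2) cells, a label that their descendants keep. All groups carried these alleles and had 4 doses of tamoxifen, and 14 days later received bleomycin or PBS through the trachea. GFP-positive cells that lacked CD45 and CD31 were sorted, with 3 mice pooled for each of 4 single-cell libraries. The groups were mice aged 12 months at day 30 after bleomycin (0.8 U/kg), mice aged 3 months at day 30 after the same dose, PBS-treated mice aged 12 months at day 0 and PBS-treated mice aged 3 months at day 0. Each group was therefore 1 library, the differences below could not be checked against replicates, and bleomycin cannot be told apart from the day of harvest. Cells were kept from 500 genes up and up to a mitochondrial share of 20%, and were split where Sftpc made up 5% of a cell's counts. Sftpc-high cells, at or over that share, were 2450 of 2993 cells in 12-month bleomycin, 2299 of 2624 in 3-month bleomycin, 2570 of 2745 in 12-month PBS and 2308 of 2394 in 3-month PBS. All 10 AT2 markers checked were found in the Sftpc-high cells of every library, with sums between 186878 and 227883 CPM (a gene's counts for every 1000000 counts of the cells summed). Sftpc alone, by which these cells were chosen, had 133061 CPM in 3-month PBS to 164177 CPM in 3-month bleomycin. High sums therefore follow largely from the split and are no separate check of cell type.

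Chemokines are small secreted proteins that bind receptors on leukocytes and draw them along a gradient. AT2 cells make surfactant and renew the alveolus, and as sentinels of the air space they also release such signals. Many chemokine genes are quiet at rest and are switched on by NF-kB downstream of Toll-like, interleukin-1 and tumour necrosis factor receptors, or by factors downstream of interferon. Cxcl1, Cxcl2 and Cxcl5 attract neutrophils through the receptor Cxcr2, and Cxcl15, or lungkine, is a mouse neutrophil attractant of the lung epithelium. Cxcl10 calls activated T and NK cells through Cxcr3. Cxcl16 is made as a membrane protein, binds Cxcr6 and is cut loose by the protease Adam10. Cxcl17 is a chemokine of mucosal surfaces, Ccl20 binds Ccr6 on dendritic cells and lymphocytes, and Ccl2 draws monocytes through Ccr2.

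The libraries differed in depth and in RNA of other cell types. Sftpc-high cells had a median of 12520 counts in 12-month bleomycin, 8552 in 3-month bleomycin, 5137.5 in 12-month PBS and 4563.5 in 3-month PBS. Shares of cells are therefore also given for cells thinned to 3000 counts each. Tyrobp, a signalling adaptor of myeloid and NK cells, was seen in 28.7% of the Sftpc-high cells of 12-month bleomycin, in 5.05% of those of 3-month bleomycin, in 2.02% in 12-month PBS and in 0.433% in 3-month PBS. In thinned cells these shares were 8.45%, 1.78%, 1.42% and 0.307% in the same order. The 10 macrophage markers that were rare in Sftpc-high cells summed to 86.7 CPM, 24.7 CPM, 21.7 CPM and 6.52 CPM in the same order, and 0, 1, 1 and 5 of them had no count. The 8 T or NK markers summed to 18.8, 2.45 and 4.14 CPM in 12-month bleomycin, 3-month bleomycin and 12-month PBS, and all 8 were at 0 in 3-month PBS. Of 10911 cell barcodes, 68 occurred in more than 1 library, with 7 to 20 shared by any pair.

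Counts came from a kit that reads the 3′ end of each transcript, so levels do not scale with transcript length and genes can be set beside each other in CPM. The 9 genes covered a wide range, as the plot of levels by library shows. Cxcl15 was far above the other genes, with 11627 CPM in 12-month bleomycin, 8375 CPM in 3-month bleomycin, 8259 CPM in 12-month PBS and 8586 CPM in 3-month PBS. Cxcl16 and Cxcl17 formed a middle tier between 37.4 and 122 CPM in every library. Cxcl1 and Cxcl2 changed tier between libraries, over 100 CPM in 12-month bleomycin and under 10 CPM in 3-month PBS. Cxcl5, Cxcl10, Ccl20 and Ccl2 stayed under 20 CPM in all 4 libraries, the level from which genes were counted as changed.

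**Figure D1:**
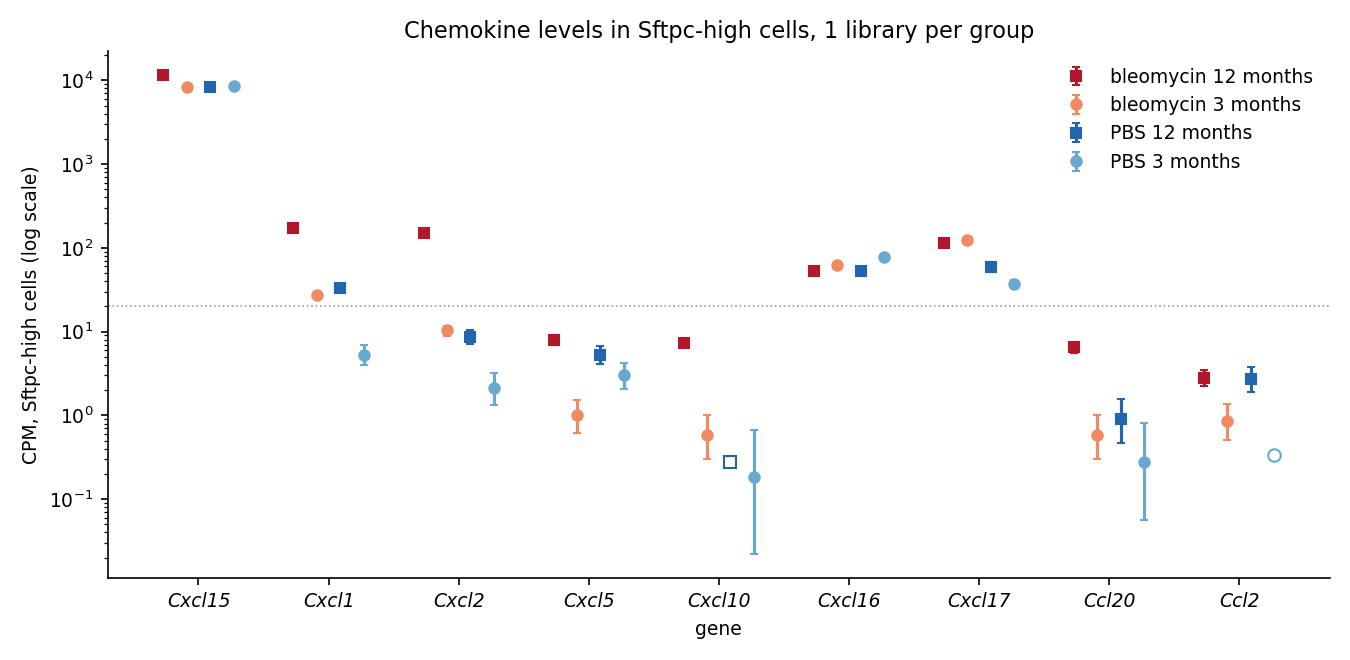
Levels of the 9 genes in Sftpc-high cells, in CPM on a log axis, with 1 point per library and exact 95% Poisson intervals that cover counting error only. Open symbols mark libraries with 0 counts and stand at the upper limit of the interval, and the dotted line is at 20 CPM. Cxcl15 lay at 8259 CPM or more in each library, while Cxcl1 and Cxcl2 were over 100 CPM in 12-month bleomycin alone, at 173 and 152 CPM.

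The first question was how these chemokines stood 30 days after bleomycin in old mice. Among the members at 20 CPM or more, Cxcl1 and Cxcl2 had the largest ratios at 12 months: Cxcl1 was 5.29-fold higher with bleomycin (4.79 to 5.84, exact conditional-binomial 95% interval, as for every ratio below) and Cxcl2 17.4-fold higher (14.5 to 21.1). These were 2 of the 5 members at 20 CPM or more that could be counted, against a background of 6.91% of 4701 genes at least 2-fold higher. None was at least 2-fold lower, where the background was 3.96%. Cxcl17 came close to the 2-fold line at 1.97-fold (1.83 to 2.14) and passed it with equal weight for each cell (2.20), after thinning (2.14) and where cells holding other-type markers were left out (2.06). Cxcl15 was 1.41-fold higher (1.40 to 1.42). Cxcl16 was at 1.01-fold (0.925 to 1.11), and its direction turned under 4 of 11 alternatives, down to 0.914.

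The same contrast was then made in young mice. At 3 months, Cxcl1 was 5.11-fold higher with bleomycin (3.90 to 6.82) and Cxcl17 3.27-fold higher (2.94 to 3.64). They were 2 of 4 members counted, with 2.71% of 4796 genes at least 2-fold higher in the background. No member was at least 2-fold lower, against 3.34% of genes. Cxcl2 was 4.89-fold higher (3.17 to 7.88) but stayed under the 20 CPM needed to be counted, and was counted with a minimum of 10 CPM. Cxcl15 was 0.975-fold (0.968 to 0.983) and Cxcl16 0.815-fold (0.747 to 0.890) of the PBS level. Scaled without the 20 most abundant genes, the Cxcl15 ratio was 1.03, so its direction at 3 months depends on the scaling.

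**Figure D2:**
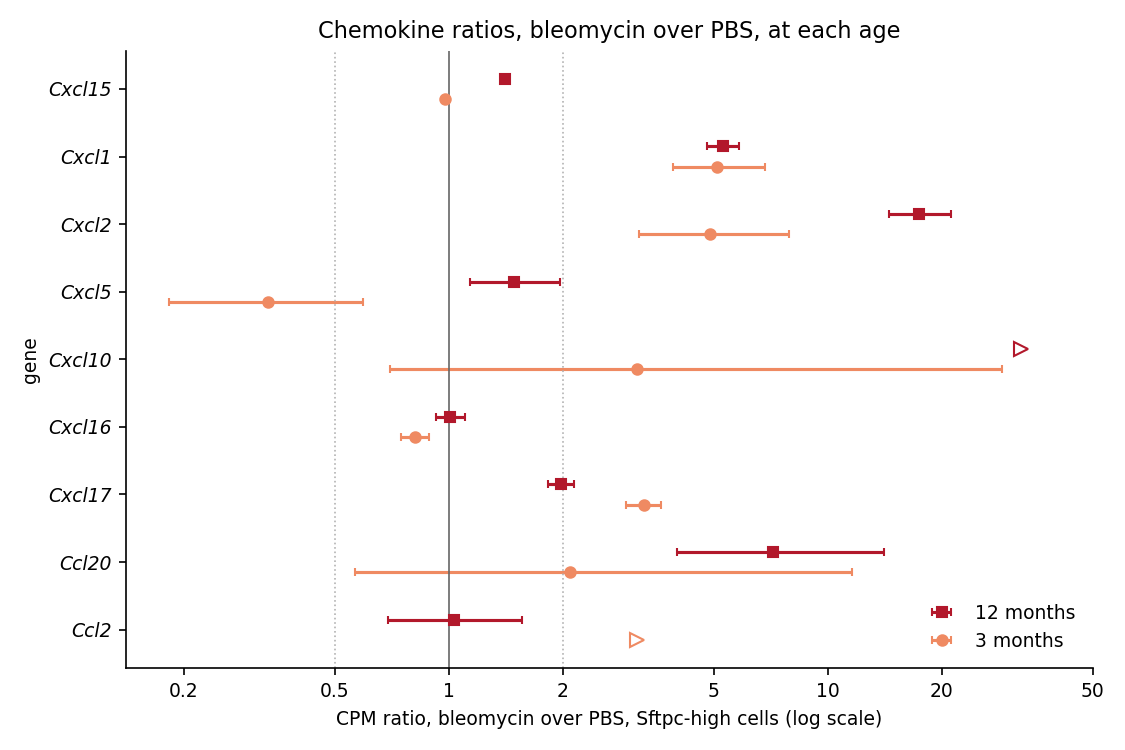
Ratio of CPM in bleomycin over PBS for each gene on a log axis, at 12 months (squares) and at 3 months (circles), with exact 95% intervals that cover counting error only. Open triangles are ratios against a floor of 3 counts where the PBS library had 0 counts, and dotted lines stand at 0.5 and 2. The Cxcl1 ratios of 5.29 and 5.11 nearly coincide, the Cxcl2 ratio at 12 months (17.4) lies to the right of that at 3 months (4.89), and the Cxcl17 ratio at 12 months (1.97) to the left of that at 3 months (3.27).

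The ages were also compared directly, within each treatment. In PBS, Cxcl1 was 6.16-fold higher at 12 months than at 3 months (4.68 to 8.25) and was the 1 member of 4 counted that was at least 2-fold higher, against 0.862% of 4526 genes. Cxcl17 was 1.56-fold higher at 12 months (1.39 to 1.77) and Cxcl16 0.684-fold (0.618 to 0.757) of the 3-month level. After bleomycin, Cxcl1 was 6.37-fold higher at 12 months than at 3 months (5.84 to 6.96) and Cxcl2 14.7-fold higher (12.9 to 17.0). They were 2 of 5 members counted, against 2.12% of 4586 genes. No member was at least 2-fold lower at 12 months in either treatment, where the background was 0.795% in PBS and 0.458% after bleomycin. For Cxcl1 the bleomycin ratio at 12 months over that at 3 months was 1.03 (0.776 to 1.38, Wald interval of counting error), for Cxcl2 it was 3.56 (2.23 to 5.69) and for Cxcl17 0.604 (0.530 to 0.688). These quotients rest on 4 libraries without replicates and were not tested against the spread between mice.

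Cxcl15 is the constitutive member of the set. It was counted in every Sftpc-high cell of 12-month bleomycin, 12-month PBS and 3-month PBS and in 2298 of 2299 cells of 3-month bleomycin. At an equal depth of 3000 counts, the median cell held 32 Cxcl15 counts in 12-month bleomycin, 22 in 3-month bleomycin, 24 in 12-month PBS and 25 in 3-month PBS. The lowest 10% of cells held at most 14 counts in 12-month bleomycin, 9 in 3-month bleomycin, and 13 in 12-month PBS and in 3-month PBS. The spread thus reached further down in 3-month bleomycin, and the whole distribution sat higher in 12-month bleomycin, where the upper 10% began at 55 counts, against 41, 37 and 39 in the other libraries in the same order. Sftpc-high cells had more Cxcl15 than the remaining sorted cells in each library, 5.21-fold in 12-month bleomycin (5.12 to 5.31), 4.22-fold in 3-month bleomycin (4.10 to 4.34), 3.10-fold in 12-month PBS (2.97 to 3.24) and 2.54-fold in 3-month PBS (2.40 to 2.68).

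Cxcl1 encodes the chief mouse counterpart of the human neutrophil-attracting chemokine GROα. Its summed counts were 5524 in 12-month bleomycin, 567 in 3-month bleomycin, 436 in 12-month PBS and 58 in 3-month PBS. The levels were 173 CPM (169 to 178, exact Poisson interval), 27.2 CPM (at most 29.6), 32.8 CPM (29.8 to 36.0) and 5.32 CPM (4.04 to 6.88) in the same order. The intervals of 3-month bleomycin and 12-month PBS nearly met, while those of 12-month bleomycin and 3-month PBS lay far above and below them. Cxcl1 was seen in 48.5% of Sftpc-high cells in 12-month bleomycin, in 9.79% in 3-month bleomycin, in 7.28% in 12-month PBS and in 1.65% in 3-month PBS. At equal depth the shares were 24.3%, 4.50%, 5.11% and 1.23%, so the order of the highest and lowest library held and the middle pair lay close together. As a check on RNA free in the droplets, 7 of 102 lymphocyte-like or endothelial-like cells of 12-month bleomycin, with a median of 4272 counts, had a Cxcl1 count (6.86%, 11.8 CPM). Other classes of that library held more, with 96.0 CPM in 36 club-like cells and 110 CPM in 156 macrophage-like cells. Sftpc-high cells, at 173 CPM, stood above all of these.

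Cxcl2, or MIP-2, acts on the same receptor and is best known from macrophages. It had 4843 counts in 12-month bleomycin, 215 in 3-month bleomycin, 116 in 12-month PBS and 23 in 3-month PBS, or 152, 10.3, 8.73 and 2.11 CPM. The share of thinned Sftpc-high cells with a count was 20.1% in 12-month bleomycin, 1.56% in 3-month bleomycin, 1.63% in 12-month PBS and 0.307% in 3-month PBS. One library therefore stood apart from the other 3. Other cells of that library carried Cxcl2 as well: 156 macrophage-like cells held 1057 CPM (1006 to 1110), while 40 ciliated-like cells held 16.8 CPM (6.74 to 34.5). Lymphocyte-like or endothelial-like cells held 272 CPM (231 to 317), with 68 and 27 of their 161 counts in 2 cells. A Cxcl2 count was seen in 42.6% of Sftpc-high cells at a median of 12520 counts per cell, against 17.5% of ciliated-like cells at 8740 and 23.5% of lymphocyte-like or endothelial-like cells at 4272. The level in Sftpc-high cells was thus above that in ciliated-like cells and under those in lymphocyte-like or endothelial-like and in macrophage-like cells. How far RNA free in the droplets adds to it was not tested.

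Because markers of macrophages and other leukocytes moved with these differences, levels were also taken in Sftpc-high cells that held no count of Tyrobp, Ptprc or any rare marker of another cell type. This left 440 cells in 12-month bleomycin, 1395 in 3-month bleomycin, 2111 in 12-month PBS and 2098 in 3-month PBS. Cxcl1 then had 154 CPM, 21.6 CPM, 27.9 CPM and 5.18 CPM in that order, and Cxcl2 122 CPM, 6.86 CPM, 5.29 CPM and 2.23 CPM. In these cells, too, 12-month bleomycin had the highest level of both genes. The bleomycin ratio of Cxcl2 was then 23.1 at 12 months and 3.07 at 3 months.

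Counts per cell were uneven. In 12-month bleomycin, 157 of the 2450 Sftpc-high cells held 50% of the Cxcl1 counts and 96 held 50% of the Cxcl2 counts, with at most 59 Cxcl1 and 67 Cxcl2 counts in a cell. At equal depth, 5.02% of those cells had 3 or more Cxcl1 counts and 4.82% had 3 or more Cxcl2 counts, whereas no cell of 3-month PBS had 3 of either gene. The genes also met in the same cells. In thinned cells of 12-month bleomycin, 227 had both, 368 Cxcl1 alone, 266 Cxcl2 alone and 1589 neither. Cxcl2 was thus seen in 38.2% of cells with Cxcl1 and in 14.3% of cells without it. The correlation of the log counts of the pair across cells was 0.39 in 12-month bleomycin, 0.26 in 3-month bleomycin, 0.20 in 12-month PBS and 0.10 in 3-month PBS. Only 6, 10 and 1 cells had both genes in 3-month bleomycin, 12-month PBS and 3-month PBS. The order of the correlations therefore cannot be told apart from how often the genes were seen. The correlations are descriptions over 2450, 2244, 2328 and 1952 cells that share a library.

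**Figure D3:**
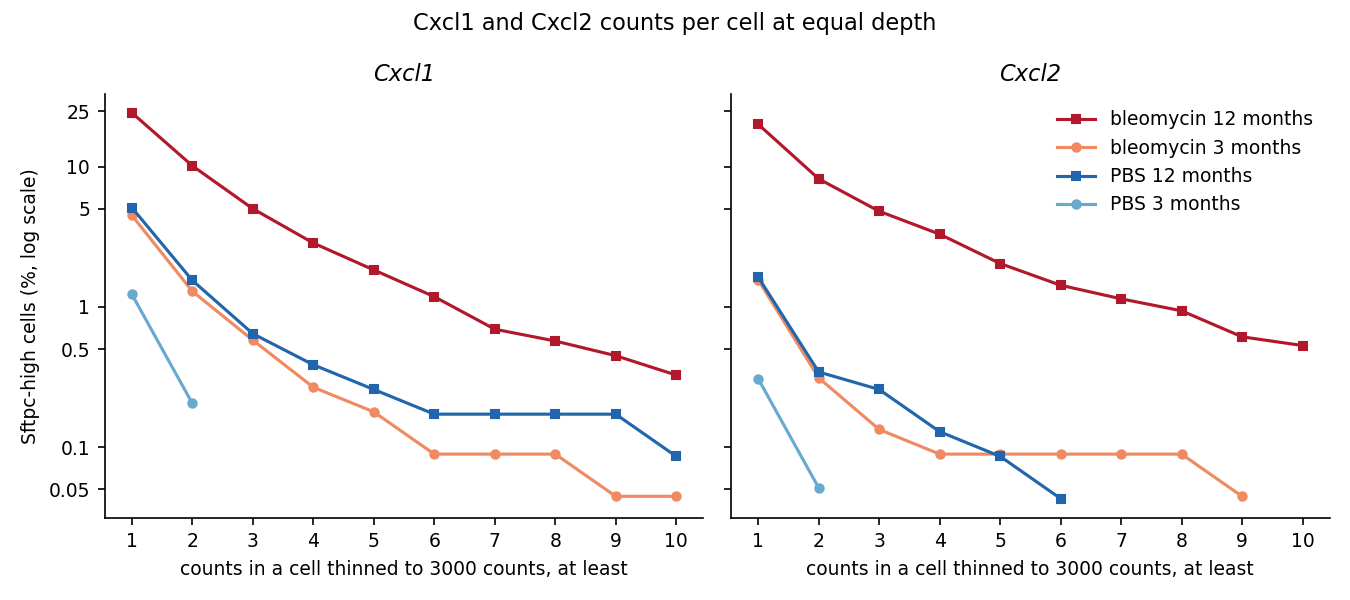
Share of Sftpc-high cells (log axis) with at least the number of Cxcl1 or Cxcl2 counts on the horizontal axis, after thinning each cell to 3000 counts; lines end where no cell is left. The 12-month bleomycin curves start at 24.3% for Cxcl1 and 20.1% for Cxcl2 and stay above the other libraries at each number shown, and the curves of 3-month bleomycin and 12-month PBS run close together for Cxcl1 up to 3 counts.

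Cxcl1 and Cxcl2 are neighbours on chromosome 5 (GRCm38), Cxcl1 at chr5:90891241-90893115 and Cxcl2 at chr5:90903871-90905938, both on the plus strand. Cxcl15 (chr5:90794534-90803067) and Cxcl5 (chr5:90759360-90761624) lie in the same cluster, which spans 147 kb, and Cxcl10 lies on the same chromosome at chr5:92346638-92348889 on the minus strand. Upstream sequence from RefSeq (GRCm38.p6) was at hand for 5 of the 9 genes and was searched over 250 bases before the start, on both strands, for 3 motifs. The kappa-B motif was spelled GGGA, any base, TT, any base, CC and occurred in 0.980% of 32851 promoters. Other spellings of it were not searched, so a site spelled otherwise is neither marked nor counted. The core of the interferon-stimulated response element, GAAA, any 2 bases, GAAA, occurred in 2.98%, and the TATA box, TATAAA, in 12.4%. Cxcl1 and Cxcl2, the members at least 2-fold higher with bleomycin at 12 months among those at 20 CPM or more, carry the same kappa-B letters, and the stretches are shown with the motifs in capitals beside those of Cxcl15 and Cxcl10. The windows are chr5:90891125-90891214 (plus) for Cxcl1, chr5:90903779-90903868 (plus) for Cxcl2, chr5:90794414-90794533 (plus) for Cxcl15 and chr5:92348980-92349109 (minus) for Cxcl10, each written 5′ to 3′ along its gene.
Cxcl1: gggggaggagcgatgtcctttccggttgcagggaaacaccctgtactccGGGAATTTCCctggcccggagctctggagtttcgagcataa
Cxcl2: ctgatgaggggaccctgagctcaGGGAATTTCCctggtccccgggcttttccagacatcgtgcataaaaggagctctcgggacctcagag
Cxcl15: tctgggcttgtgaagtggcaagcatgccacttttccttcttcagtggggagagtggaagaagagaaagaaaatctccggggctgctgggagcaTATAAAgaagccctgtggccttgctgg
Cxcl10: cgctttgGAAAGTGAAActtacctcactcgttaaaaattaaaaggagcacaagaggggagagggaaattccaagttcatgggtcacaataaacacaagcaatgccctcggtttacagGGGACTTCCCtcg
The match GGGAATTTCC begins 71 bases before the RefSeq start of Cxcl1 and 97 bases before that of Cxcl2. The gene positions above are from GENCODE, whose starts of Cxcl1 and Cxcl2 differ from those of RefSeq. The spacing of the matches therefore depends on the start used. Cxcl10 holds GGGACTTCCC at 103 bases and GAAAGTGAAA at 213 bases before its start. In the Cxcl15 window the search found TATAAA, 27 bases upstream, and neither of the other motifs. Ccl20, the fifth gene with a window, held no match. A match is only a run of letters, and binding was not measured.

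Cxcl5, a neutrophil attractant of the mouse lung epithelium, was scarce and came in bursts. It had 250 counts in 12-month bleomycin, 21 in 3-month bleomycin, 70 in 12-month PBS and 33 in 3-month PBS (7.85, 1.01, 5.27 and 3.03 CPM). In PBS a single cell gave 32 of the 70 counts at 12 months and 26 of the 33 at 3 months, against 20 of 250 in 12-month bleomycin. The ratio of bleomycin over PBS was 1.49 at 12 months (1.14 to 1.97) and 0.333 at 3 months (0.183 to 0.593). Without the highest cell of each library these were 2.53 and 1.12, so the lower level at 3 months rested on single cells. Outside the Sftpc-high cells, 40 ciliated-like cells of 12-month bleomycin held 76.6 CPM. Counted by cells, 5.22% of Sftpc-high cells in 12-month bleomycin had a Cxcl5 count, against 0.652% in 3-month bleomycin, 0.895% in 12-month PBS and 0.347% in 3-month PBS. In thinned cells the shares were 1.51%, 0.134%, 0.644% and 0.154% in that order, highest in 12-month bleomycin and close together in the 3-month libraries.

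Cxcl10, the interferon-induced member, was seen almost only in 12-month bleomycin. There it had 233 counts (7.32 CPM) in 5.59% of Sftpc-high cells, against 12 counts (0.576 CPM) in 3-month bleomycin, none in 12-month PBS and 2 in 3-month PBS. With the absent counts set to a floor of 3 counts in the PBS library, it was 32.4-fold higher with bleomycin at 12 months, a ratio without an interval. In bleomycin it was 12.7-fold higher at 12 months than at 3 months (7.13 to 24.9). Cells of other types carried more: 24 mesenchymal-like cells of 12-month bleomycin held 720 CPM, with 98 of their 179 counts in 1 cell, and 156 macrophage-like cells held 156 CPM. The 40 ciliated-like cells held 2 counts (4.79 CPM, 0.580 to 17.3), each in a cell of its own. A Cxcl10 count was also seen in 11.8% of the lymphocyte-like or endothelial-like cells, against 5.59% of Sftpc-high cells, at median depths of 4272 and 12520 counts. How far RNA free in the droplets makes up the Sftpc-high counts was not tested. In Sftpc-high cells of that library without other-type markers Cxcl10 was at 4.60 CPM (2.81 to 7.11).

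Cxcl16, a transmembrane chemokine that also takes up oxidised lipids, was the steadiest of the middle tier. It stood at 53.3 CPM (50.7 to 55.8) in 12-month bleomycin, 62.7 (59.4 to 66.2) in 3-month bleomycin, 52.7 (48.8 to 56.7) in 12-month PBS and 77.0 (71.9 to 82.4) in 3-month PBS. The 12-month libraries overlapped, and 3-month PBS was the highest. Without thinning, the shares of cells were 43.0% in 12-month bleomycin, 37.4% in 3-month bleomycin, 22.4% in 12-month PBS and 28.6% in 3-month PBS, higher in the deeper bleomycin libraries. At equal depth they were 14.0%, 17.6%, 14.3% and 20.1%, in the order of the levels apart from the 12-month pair. Sftpc-high cells had less Cxcl16 than the remaining sorted cells of their library, 0.301-fold in 12-month bleomycin (0.278 to 0.327), 0.470-fold in 3-month bleomycin (0.416 to 0.531), 0.668-fold in 12-month PBS (0.518 to 0.873) and 0.659-fold in 3-month PBS (0.491 to 0.904).

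Cxcl17 was higher with bleomycin at both ages. It had 116 CPM (112 to 119) in 12-month bleomycin, 122 CPM (118 to 127) in 3-month bleomycin, 58.5 CPM (54.5 to 62.8) in 12-month PBS and 37.4 CPM (33.9 to 41.3) in 3-month PBS. Both bleomycin libraries lay above both PBS libraries. At equal depth it was seen in 25.3% of Sftpc-high cells in each bleomycin library, in 13.6% in 12-month PBS and in 9.48% in 3-month PBS. In lymphocyte-like or endothelial-like cells the gene was close to absent, with 2 counts in 102 cells in 12-month bleomycin and 2 in 50 cells in 3-month bleomycin. Levels in Sftpc-high cells without other-type markers were 117 CPM, 128 CPM, 56.6 CPM and 36.5 CPM in 12-month bleomycin, 3-month bleomycin, 12-month PBS and 3-month PBS. The difference was thus as large in those cells.

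The CC chemokines were rare. Ccl20, whose receptor Ccr6 marks cells that build mucosal lymphoid tissue, had 206 counts in 12-month bleomycin, 12 in 3-month bleomycin, 12 in 12-month PBS and 3 in 3-month PBS. Of the 206 counts, 178 came from 1 cell, and without the highest cell of each library the bleomycin ratio at 12 months was 1.30 in place of 7.16 (4.01 to 14.1). In cells without other-type markers it was 0.221, the other direction. Ccl2 had 89 counts in 12-month bleomycin, 18 in 3-month bleomycin, 36 in 12-month PBS and none in 3-month PBS. Its level of 2.79 CPM in Sftpc-high cells of 12-month bleomycin compares with 269 CPM (243 to 296) in the macrophage-like cells of that library. At 12 months Ccl2 was 1.03-fold (0.693 to 1.56) with bleomycin. At 3 months it was 3.14-fold higher against the floor of 3 counts, a ratio without an interval. A single cell gave 8 of the 18 counts of 3-month bleomycin, and 3 counts lay in cells without other-type markers. In 12-month PBS, 15 and 13 of the 36 counts lay in single cells.

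The sorted cells under the Sftpc limit made it possible to ask which other cells held these genes. They were classed by markers of which at least 3 were seen in a cell, or as club-like by a Scgb1a1 share of 5%, a rule set after the data were seen. Cells that met no rule were 141 of 543 in 12-month bleomycin and 109 of 325 in 3-month bleomycin. In 12-month PBS they were 77 of 175 and in 3-month PBS 55 of 86. The list for transitional alveolar cells kept 1 usable marker, so no cell could be classed by it. Cxcl15 was highest in Sftpc-high cells, ahead of club-like cells: 36 of these in 12-month bleomycin had 4870 CPM, while lymphocyte-like or endothelial-like cells had 908 CPM in 12-month bleomycin, 681 in 3-month bleomycin, 523 in 12-month PBS and 1328 in 3-month PBS. Cxcl17 was highest in ciliated-like cells, at 1149 CPM (1048 to 1256) in 12-month bleomycin, 1101 CPM (1009 to 1199) in 3-month bleomycin and 592 CPM (486 to 715) in 12-month PBS. Cxcl16 was above the Sftpc-high level in macrophage-like cells, with 340, 237 and 227 CPM in the same libraries, and in AT1-like cells, the flat gas-exchange cells, with 165, 287 and 465 CPM in 17, 43 and 11 cells. It was also above that level in cells that met no rule, with 193, 230 and 103 CPM in those libraries and 170 CPM in 3-month PBS. Cells that met no rule also held 38 of the 43 Ccl20 counts under the Sftpc limit in 12-month PBS, 23 of them in 1 cell. Among classes of at least 10 cells, Ccl2 and Cxcl2 were highest in macrophage-like cells. Macrophage-like cells held 269, 272 and 186 CPM of Ccl2 and 1057, 935 and 1196 CPM of Cxcl2 in 12-month bleomycin, 3-month bleomycin and 12-month PBS. In smaller classes of 12-month bleomycin, 5 mesothelial-like cells held 422 CPM of Ccl2 (258 to 652) and 1 neutrophil-like cell held 47 counts of Cxcl2. Cxcl1 was highest in Sftpc-high cells among the classes of at least 10 cells in 12-month bleomycin, but in 3-month bleomycin 11 mesenchymal-like cells reached 583 CPM, with 27 of their 28 counts in 1 cell. Club-like and macrophage-like cells of 3-month bleomycin (94.5 and 64.3 CPM) were also above Sftpc-high cells (27.2 CPM). Sftpc-high cells had 2.18-fold (1.97 to 2.42) the Cxcl1 of the remaining cells in 12-month bleomycin. In 3-month bleomycin, 12-month PBS and 3-month PBS they had 0.638-fold (0.518 to 0.793), 0.946-fold (0.65 to 1.43) and 0.195-fold (0.101 to 0.411). The 3-month PBS library had too few cells of these classes for values, with 2 macrophage-like, 2 AT1-like and 6 ciliated-like cells.

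**Figure D4:**
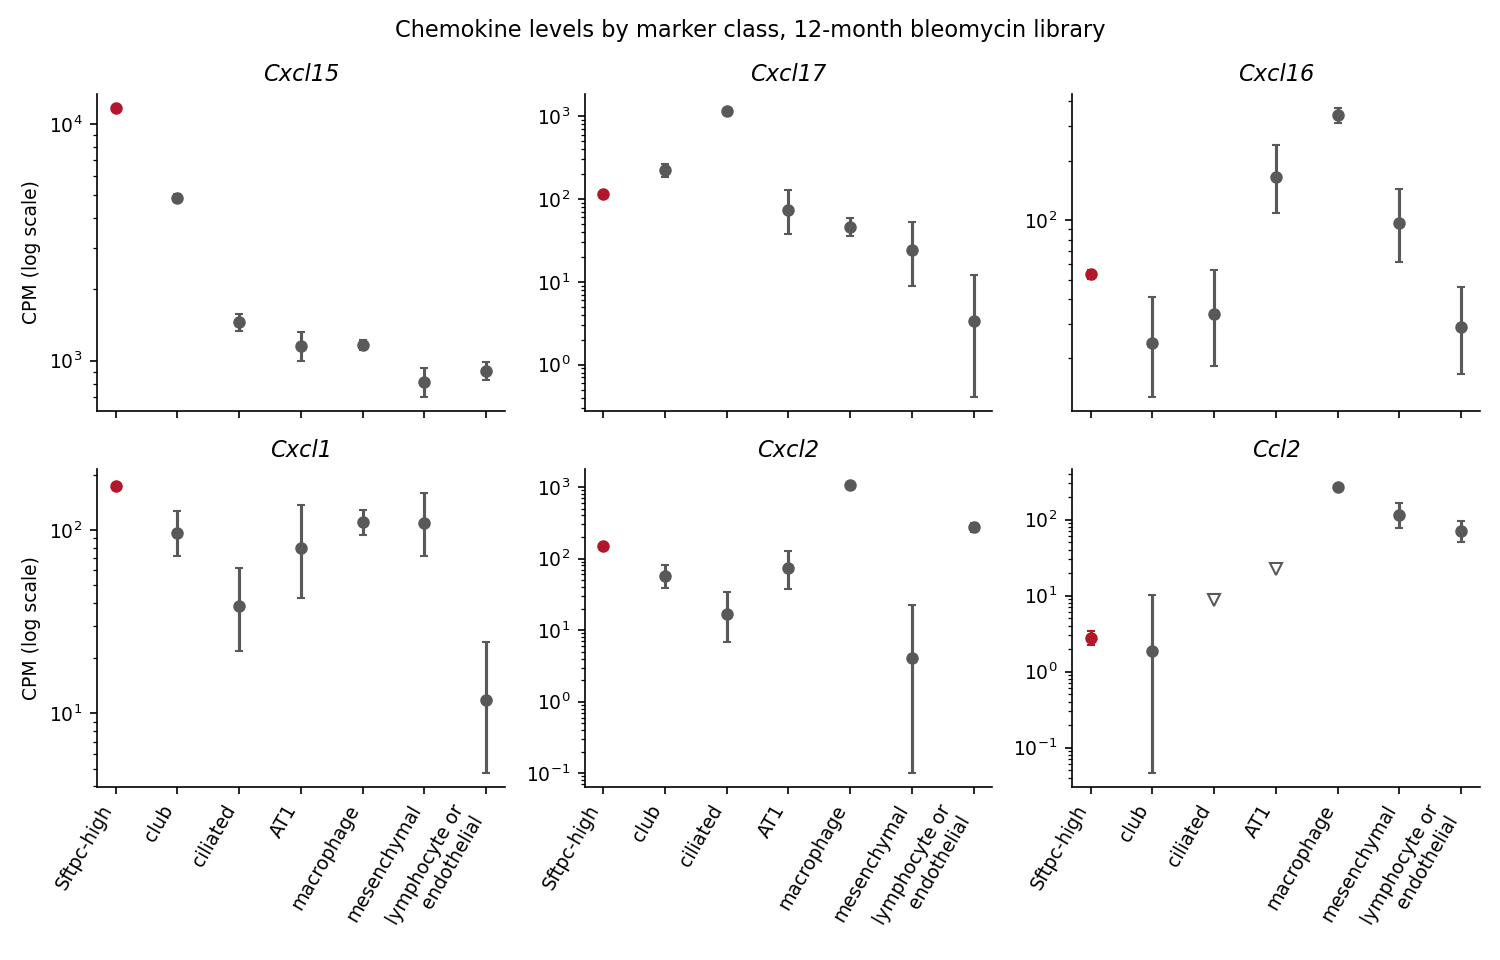
Levels of 6 of the genes in the 12-month bleomycin library, in CPM on a log axis, for Sftpc-high cells (red) and for classes of cells under the Sftpc limit (grey), with exact 95% Poisson intervals that cover counting error only. Open triangles stand at the upper limit where the class had 0 counts. Among the classes plotted, Cxcl15 was highest in Sftpc-high cells (11627 CPM), Cxcl17 in ciliated-like cells (1149 CPM), and Cxcl16, Cxcl2 and Ccl2 in macrophage-like cells (340, 1057 and 269 CPM).

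Receptors and pathway genes were read in the same cells. None of the 23 chemokine receptors reached 20 CPM in any library, and the highest level was 1.38 CPM, for Ccr6 in 3-month PBS. Of 24 other chemokine ligands with 1 row each, 3 were at 20 CPM or more in the 12-month contrast and all 3 were at least 2-fold higher with bleomycin, beside 6.91% of all genes counted: Ccl5 6.73-fold (5.30 to 8.66), Ccl6 5.44-fold (4.12 to 7.31) and Pf4 5.10-fold (4.48 to 5.83). Ccl5 is a T and NK cell chemokine, Ccl6 a macrophage chemokine and Pf4 a platelet factor, and whether RNA of those cells makes up their counts was not tested. At 3 months, 1 was measured at 20 CPM and it was under 2-fold, beside 2.71% of all genes at least 2-fold higher. Cxcl3, the close relative of Cxcl2, had 10.9 CPM in 12-month bleomycin, 2.59 in 3-month bleomycin, 2.11 in 12-month PBS and 1.01 in 3-month PBS. The transcripts of Cxcl2 and Cxcl3 share a run of 110 bases that lies 1687 bases from the 3′ end in Cxcl2 and 850 in Cxcl3, far from where this kit reads.

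Genes of NF-kB signalling were next. Of 22 listed, 9 were at 20 CPM in the 12-month contrast, and 2 were at least 2-fold higher with bleomycin, beside 6.91% of all genes counted: Nfkbia at 2.83-fold (2.68 to 3.00) and Nfkbiz at 3.19-fold (2.72 to 3.77). Both encode IκB proteins that NF-kB itself induces. The list's median log2 ratio was 0.36, beside 0.10 over all genes counted. In 3-month mice 8 were counted and none passed 2-fold, beside 2.71% of all genes higher and 3.34% lower. With 8 genes, that count cannot tell the list from all genes. The list's median in 3-month mice was 0.26, beside -0.01 over all genes. Counts of 2 of 9, at 12 months and between the ages after bleomycin, rest on as few genes and were not tested. Nfkbia had 304 CPM in 12-month bleomycin, 100 in 3-month bleomycin, 107 in 12-month PBS and 60.5 in 3-month PBS. After bleomycin it was 3.03-fold higher at 12 months than at 3 months (2.89 to 3.18), and Nfkbiz was 2.86-fold higher (2.52 to 3.26), the 2 of 9 counted that passed, beside 2.12% of all genes. In PBS, 8 were counted between the ages and none differed by 2-fold, beside 0.862% of all genes higher and 0.795% lower at 12 months.

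Genes of interferon signalling were read in the same way. Of 15, 8 were counted in the 12-month contrast and 6 were at least 2-fold higher with bleomycin, beside 6.91% of all genes counted, with a median log2 ratio of 1.35, beside 0.10 over all genes. Isg15 was 29.96-fold higher (24.2 to 37.5), the interferon regulator Irf7 17.8-fold (13.2 to 24.6) and Irf9 2.97-fold (2.43 to 3.66). In 3-month mice 3 were counted and none passed 2-fold, beside 2.71% of all genes higher and 3.34% lower. With 3 genes, that count cannot tell the list from all genes. After bleomycin 5 of 8 were at least 2-fold higher at 12 months than at 3 months, beside 2.12% of all genes, among them Isg15 at 12.1-fold (10.8 to 13.5) and Irf7 at 11.9-fold (9.77 to 14.7). In PBS, 2 were counted between the ages and neither passed, beside 0.862% of all genes higher and 0.795% lower at 12 months.

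Genes that act on chemokine protein or mRNA were present throughout. Of 7 in this list, all were counted in each contrast and 1 passed, the mRNA decay factor Zfp36 (tristetraprolin), which was 0.492-fold (0.465 to 0.521) with bleomycin at 3 months, where 3.34% of all genes were at least 2-fold lower. It had 200 CPM in 12-month bleomycin, 115 in 3-month bleomycin, 227 in 12-month PBS and 233 in 3-month PBS. Adam10, which sheds Cxcl16, had 32.9 CPM, 29.9 CPM, 23.9 CPM and 28.9 CPM in the same order. Of 15 epithelial cytokines 5 were counted with bleomycin at each age, and Il34, a ligand of the macrophage receptor Csf1r, was the 1 past 2-fold, at 2.20-fold (1.83 to 2.67) in 3-month mice, where 2.71% of all genes were at least 2-fold higher. No member of these lists passed 2-fold between the ages in PBS, beside 0.862% of all genes higher and 0.795% lower at 12 months.

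The genes whose counts followed each chemokine most closely from cell to cell were named by the mean correlation over the 4 libraries, in thinned cells and among 4033 genes. For Cxcl15 they were Lyz2 (mean r 0.30), Lcn2 (0.30) and Sftpa1 (0.27), each with r between 0.12 and 0.43 in single libraries. For Cxcl1, Nfkbia led with a mean r of 0.24 (0.16 to 0.37), ahead of Junb (0.13, from 0.037 to 0.245) and Atf3 (0.12, from 0.019 to 0.261). Cxcl1 was seen in 5% of thinned cells in 2 of the 4 libraries, and the lowest values for Junb and Atf3 are too weak to read. For Cxcl17 they were Npc2 (0.20), Lrg1 (0.14) and Dbi (0.14), and for Cxcl16 no gene passed 0.07, which is too weak to read. Cxcl2 was seen in 5% of thinned cells in 1 library alone, and Cxcl5, Cxcl10, Ccl20 and Ccl2 in none, so no like genes were sought. The cells of a library share its depth and free RNA, and these correlations are descriptions.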

How the data were processed

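The authors deposited, for each cell barcode and gene, a count of distinct tagged molecules, made with the 10x Genomics 3′ kit per the labels' protocols. Per the submitters' processing notes, Cell Ranger, mm10 and Seurat 3.2.2 were used, and no Cell Ranger version is named there. The matrices hold whole numbers for 27998 genes, and totals per file were 36960380 (12-month bleomycin), 23379893 (3-month bleomycin), 14214212 (12-month PBS) and 11381566 (3-month PBS). No normalization had been applied to them.

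Counts were summed over Sftpc-high cells (31849343, 20832613, 13289829 and 10896642 in the same order) and scaled to CPM. A gene was counted from 2-fold among genes that reached 20 CPM in either library compared, with a prior of 0.5 counts in the log2 ratio. Since every group was 1 library, nothing was tested. Intervals (95%: Poisson for levels, conditional binomial for ratios, Clopper-Pearson for shares) cover counting error only. A gene at 0 was set to a floor of 3 counts per library for a ratio, which leaves out counting error in the other library. Cells within 4% to 6% Sftpc numbered 65, 39, 52 and 98. Doublets (Scrublet, scanpy 1.11.5; 72, 56, 63 and 48 called) were kept and left out in an alternative. Cells under the Sftpc limit were classed by markers seen in under 20% of Sftpc-high cells of every library. The code was checked on simulated counts. Python 3.11.15, numpy 2.4.6, scipy 1.17.1, pandas 2.3.3 and matplotlib 3.10.9 were used. Positions are from GENCODE M21 (GRCm38), in which all 9 genes were found by Ensembl identifier.

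The members, lists, markers and limits were chosen with earlier results of these data known. Named beside the members are list genes past 2-fold, up to 4 per list and comparison, of which 1 is not reported here; other genes named with values (Tyrobp, Cxcl3, Ccr6, Adam10) were chosen after their values were seen. Of 28 other ligands, 27 were found, and 3 of those have several rows and were not used.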

Additional observations from a re-analysis of the deposited data

Results flagged for a closer look

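For Cxcl15 and Cxcl5 the ratio of bleomycin over PBS pointed up at one age and down at the other. Cxcl15 was 1.41-fold at 12 months and 0.975-fold at 3 months, and Cxcl5 was 1.49-fold at 12 months and 0.333-fold at 3 months. With 1 library per group the difference between the ages was not tested. The Cxcl15 ratio at 3 months is near 1 and passed it when the 20 most abundant genes were left out of the scaling (1.03). The Cxcl5 ratio at 3 months passed 1 when the highest cell of each library was left out (1.12).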

How the results depend on the processing

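Across 14 settings, 105 of 112 counts of members kept within 1.5 times. Among the 112 are the counts of members at least 2-fold lower. Those were 0 as reported and stayed at 0, apart from 1 case given below, so they add little to that share. With a minimum of 50 CPM, the members at least 2-fold higher were 1 for bleomycin at 3 months, beside 62 of 2245 genes. They were 0 for age in PBS, beside 21 of 2120 genes. With no minimum beyond 10 counts, the members at least 2-fold higher were 4 for bleomycin at 12 months, beside 2025 of 13563 genes. For bleomycin at 3 months they were 5, beside 1151 of 12764 genes. They were 4 for age in PBS, beside 436 of 12164 genes, and 6 for age in bleomycin, beside 1033 of 13782. For bleomycin at 3 months 1 member was at least 2-fold lower, beside 672 of 12764 genes. Fewer or more genes were counted by construction. Of 352 member ratios under 11 settings, 334 kept their direction and 38 moved by over 1.5 times, all of them in Cxcl2, Cxcl5, Cxcl10, Ccl20 or Ccl2. The direction turned in ratios near 1 of Cxcl15, Cxcl16, Cxcl17 and Ccl2, and in the scarce Cxcl5 and Ccl20: without cells with other-type markers Ccl20 was 0.221-fold at 12 months and 0.282-fold at 3 months. For age in PBS, Cxcl15 was 1.03 with median-of-ratios scaling, and Cxcl5 was 0.768 with Sftpc at 10% or more and 0.762 without cells with other-type markers. Ccl2 at 12 months ranged from 0.777 to 4.68. The causes were not tested. The Cxcl1 ratio ranged from 4.98 to 5.56 at 12 months and from 4.18 to 5.42 at 3 months, and the Cxcl2 ratio from 16.4 to 23.1 at 12 months. Scaling by the median of ratios moved all genes by at most 0.10 on the log2 scale. Leaving out cells with any count of the 58 markers of other types was not run, since 2, 5, 13 and 1 cells were left; leaving out cells with rare markers, Tyrobp or Ptprc, and leaving out the highest cell per gene, were chosen after seeing the data. A gene at 0 counts in a library has no ratio. No paired analysis was possible because each group is 1 library. Depth limits Cxcl5, Cxcl10, Ccl20 and Ccl2, which 1 cell can move.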

Other observations

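Among epithelial cytokines outside the chemokine set, Il33, an alarmin, had 233 CPM in 12-month bleomycin, 273 in 3-month bleomycin, 235 in 12-month PBS and 241 in 3-month PBS. The macrophage growth factor Csf2 had 21.3, 13.2, 16.3 and 24.0 CPM in the same order, and Tgfb2 had 2.57 and 1.39 CPM in 12-month and 3-month bleomycin, against 0.0752 and 0.0918 CPM in 12-month and 3-month PBS. Il6 had 4.46 and 2.30 CPM in 12-month and 3-month bleomycin, and 0.752 and 0.184 CPM in 12-month and 3-month PBS. The Tgfb2 values in PBS stand for 1 count in each library. Those values and Il6 in 3-month PBS lie under the floor of 3 counts and are not measured levels. These genes were named after their values were seen and have no replicate check.

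Single cells with very many counts of a chemokine occurred in several libraries. A Sftpc-high cell of 12-month bleomycin held 178 Ccl20 counts, and the next highest held 3. A cell of 12-month PBS held 32 Cxcl5 counts and a cell of 3-month PBS held 26, where the next highest held 6 and 1. A cell of 3-month bleomycin held 109 Cxcl17 counts, and the next highest held 15.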
